A study of Mus musculus with 9 samples.

Results

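The genes described here encode the heat shock proteins and chaperonins of the mouse together with their closest helpers. They were taken from the expression table by gene symbol alone, as the Hsp, Dnaja, Dnajb, Dnajc, Cct, Tcp1 and Bag families, which gave 90 of the 27095 loci listed. Of these 90 genes, 78 passed a filter of a mean FPKM (fragments per unit of exon length, scaled to the size of each library) of at least 1 over the 3 groups, as did 15455 loci of the whole table. RNA was sequenced from 9 wild type C57BL/6 fetuses (C57BL/6J in the study's methods) collected on gestational day 17 (GD17), with 3 fetuses in each group. Control fetuses came from dams given lactated Ringer's solution, and EtOH-exposed fetuses from dams that received EtOH intraperitoneally on gestational day 7, at 2.9 g/kg. Exposed fetuses were sorted into an affected group, with ocular and cortical patterning defects, and an unaffected group without them. The affected group was therefore selected by its defects and not by a separate treatment, and the sources used here do not say which of the sequenced fetuses shared a dam. The affected fetuses of the wider study were mostly female, and the sex of those sequenced is not given.

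The deposited table holds 1 FPKM per group and gene, made over the 3 fetuses, and no value of a single fetus. No difference given here has a replicate check, and no test was made. Genes are described as apart between groups where the log2 ratio of their group FPKM is at least 0.32 in size, and the share of all 15455 loci past the same limit is given as the background. Fragment counts per library are not given in the sources used here, so the depth behind each value is unknown. In bulk tissue, a change in the number of cells of a type cannot be told apart from a change in RNA per cell. The tissue is called fetal brain in the labels and cortex in the study's methods. The 6 markers of cortical projection neurons were all detected and summed to 733 FPKM in control, 646 in unaffected and 828 in affected fetuses. Markers of choroid plexus and ependyma summed to 993, 1319 and 1111 FPKM in the same order, almost all of it Ttr with 970, 1291 and 1077 FPKM. Of the other 5 markers, Clic6, Krt18 and Krt8 had log2 ratios of 0.63, 0.81 and 0.90 in affected against unaffected fetuses, Foxj1 0.04 and Folr1 -0.15. The 4 blood loci found, for 3 of the 6 genes listed, summed to 456, 596 and 372 FPKM, almost all of it Hba-a1. In affected against control fetuses, 3 of these 4 loci had ratios below 0, while Hbb-y was at 1.42, with 0.953, 3.34 and 2.56 FPKM. These cell type markers therefore moved between the groups as well, and their part in the values below was not tested.

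Chaperones hold unfolded or partly folded proteins until they can fold, move across a membrane or be degraded. HSP70 proteins bind short hydrophobic stretches in a cycle of ATP hydrolysis, which J-domain proteins (the DNAJA, DNAJB and DNAJC families) start and nucleotide exchange factors such as the HSP110 and BAG proteins end. HSP90 acts later, on kinases, steroid receptors and other near-native clients. Chaperonins are barrels that enclose a whole protein, with TRiC/CCT in the cytosol, where actin and tubulin are its main clients, and HSPD1 with its lid HSPE1 in the mitochondrial matrix. Small HSPs hold aggregating proteins without ATP. Under proteotoxic stress the transcription factor HSF1 binds heat shock elements, which are inverted repeats of the unit GAA, and drives the inducible members of these families, while stress in the endoplasmic reticulum (ER) acts on the ER members through separate elements.

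The promoters of 5 of these genes are printed because they hold such elements and belong to genes whose levels are compared below. Promoter windows of 300 bases, from 250 before to 50 after the start site, were matched by symbol for 74 of the 90 genes in RefSeq (GRCm38.p6, the patch release of the mm10 build), in 94 windows. The 250 bases before the start site are shown 5′ to 3′ on the strand of the gene. Capitals mark the letters GAANNTTC or TTCNNGAA, a heat shock element of 2 units, in the first 4 promoters, and the ER stress element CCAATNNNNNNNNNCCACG in the fifth. The promoters are those of Hspe1, the mitochondrial chaperonin lid (chr1:55087898-55088147, plus strand), of the TRiC subunits Cct5 (chr15:31601847-31602096, minus strand) and Cct2 (chr10:117063376-117063625, minus strand), of Hspa1a, the stress-inducible HSP70 (chr17:34972157-34972406, minus strand), and of Hspa5, the HSP70 of the ER also known as BiP (chr2:34771840-34772089, plus strand).
Hspe1: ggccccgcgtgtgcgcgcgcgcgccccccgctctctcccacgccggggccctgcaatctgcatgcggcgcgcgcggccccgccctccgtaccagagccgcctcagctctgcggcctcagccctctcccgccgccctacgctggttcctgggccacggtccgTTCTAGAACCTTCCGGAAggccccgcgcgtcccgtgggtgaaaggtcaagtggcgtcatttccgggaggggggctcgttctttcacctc
Cct5: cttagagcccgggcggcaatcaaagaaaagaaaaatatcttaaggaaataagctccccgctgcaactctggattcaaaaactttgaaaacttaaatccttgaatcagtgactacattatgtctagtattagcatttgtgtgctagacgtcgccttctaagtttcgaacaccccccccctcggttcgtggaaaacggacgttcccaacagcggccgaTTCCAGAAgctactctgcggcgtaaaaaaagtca
Cct2: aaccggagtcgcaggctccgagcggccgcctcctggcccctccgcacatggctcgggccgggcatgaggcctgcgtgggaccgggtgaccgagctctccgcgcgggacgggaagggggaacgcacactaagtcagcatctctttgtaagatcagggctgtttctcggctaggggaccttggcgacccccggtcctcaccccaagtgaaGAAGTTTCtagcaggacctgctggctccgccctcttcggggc
Hspa1a: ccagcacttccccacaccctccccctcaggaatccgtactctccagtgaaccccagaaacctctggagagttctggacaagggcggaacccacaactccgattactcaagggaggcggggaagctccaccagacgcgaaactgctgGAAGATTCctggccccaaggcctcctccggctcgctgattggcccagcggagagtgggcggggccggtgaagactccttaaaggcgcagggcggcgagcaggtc
Hspa5: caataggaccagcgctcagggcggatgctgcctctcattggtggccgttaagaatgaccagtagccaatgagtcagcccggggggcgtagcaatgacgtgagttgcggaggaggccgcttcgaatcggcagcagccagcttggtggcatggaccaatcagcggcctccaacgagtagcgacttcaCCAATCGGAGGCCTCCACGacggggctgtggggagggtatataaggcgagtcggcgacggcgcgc

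The Hspe1 promoter holds 3 overlapping matches to the 2-unit element, the first of which begins 89 bases before the start site. Cct2 and Cct5 each have another window, not printed, that holds 0 matches, and the printed Cct2 stretch lies inside the locus interval of the gene. Matches to the 2-unit element, searched on both strands, were found in 23 of the 94 windows (24.5%), against 15.1% of all 32851 windows of that length. A run of 3 units, spelled GAANNTTCNNGAA or TTCNNGAANNTTC and always overlapping a 2-unit match, was found in 6 of the 94 windows (6.38%) and in 0.603% of all windows. Some of these windows overlap and hold the same site. With overlapping windows of either strand joined, the run stood in 3 of 83 stretches (3.61%), against 0.595% of all 29061, and the 2-unit element in 20 of 83 (24.1%), against 15.6%. The genes with 3 units were Dnajb6, Hsph1 and the pair Hspd1 and Hspe1, whose windows overlap. The ER stress element, in either orientation, was found for Dnajc3, Hsp90b1 and Hspa5, which is 3 of 94 windows (3.19%) against 0.119% of all. A match describes the letters in the window and is not a measured binding site.

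Over all 78 genes, few were apart between affected and control or between unaffected and control fetuses. In affected against control fetuses, 6 genes were lower, or 7.69%, against 11.5% of all loci, and 2 genes were higher, or 2.56%, against 12.6% of all loci. The lower genes were Hspe1, Dnajc15, Dnajc19, Dnajc4, Hspa13 and Hspb3, and the higher genes were Bag6 and Dnajb13. In unaffected against control fetuses, 0 genes were lower, against 6.99% of all loci, and 2 genes (2.56%), Dnajb13 and Dnajc24, were higher, against 5.53% of all loci. In affected against unaffected fetuses, 17 genes were lower, or 21.8%, against 18.5% of all loci, and 5 genes were higher, or 6.41%, against 20.7% of all loci. Both shares in affected against control and the higher share in affected against unaffected lay below the background, and the lower share in affected against unaffected fetuses lay slightly above it. These differences from the background were not tested. The median log2 ratio of the 78 genes was -0.05 in affected against control fetuses (0.02 over all loci), 0.02 in unaffected against control fetuses (0.01 over all loci) and -0.03 in affected against unaffected fetuses (0.01 over all loci).

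**Figure D1:**
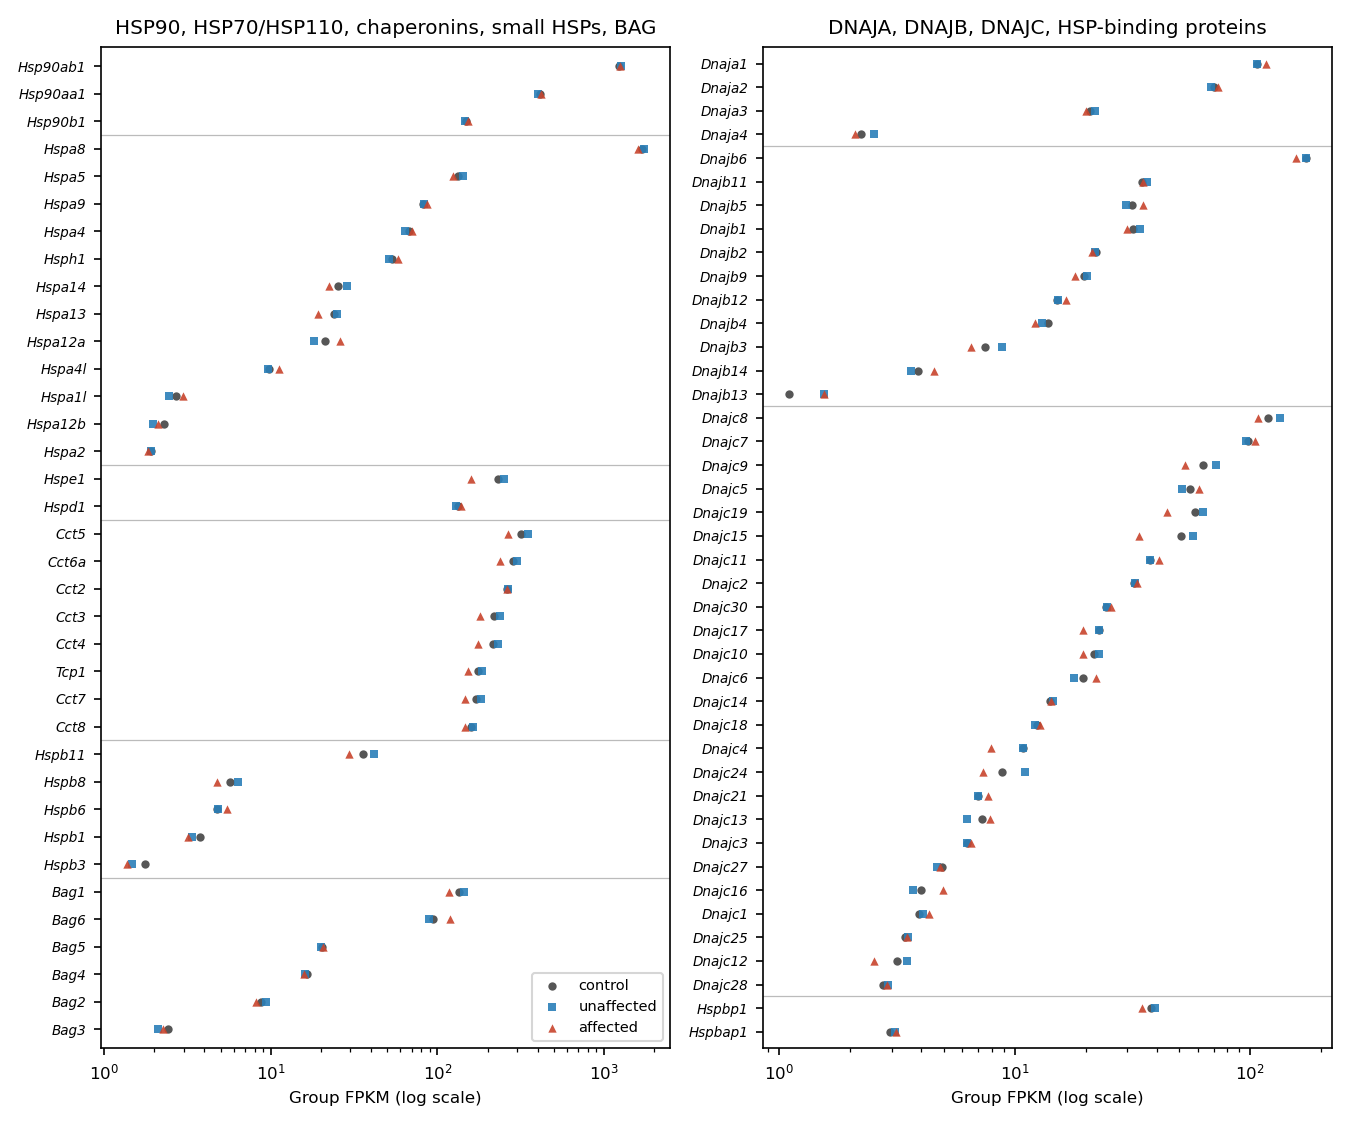
Group FPKM of the 78 genes past the filter on a log axis, 1 point per group (grey circle, control; blue square, unaffected; red triangle, affected), ordered by class and by mean level within a class. For most genes the 3 points overlap, while Hspe1, Dnajc15, Dnajc19 and 7 of the 8 TRiC subunits have the affected point on the left.

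**Figure D2:**
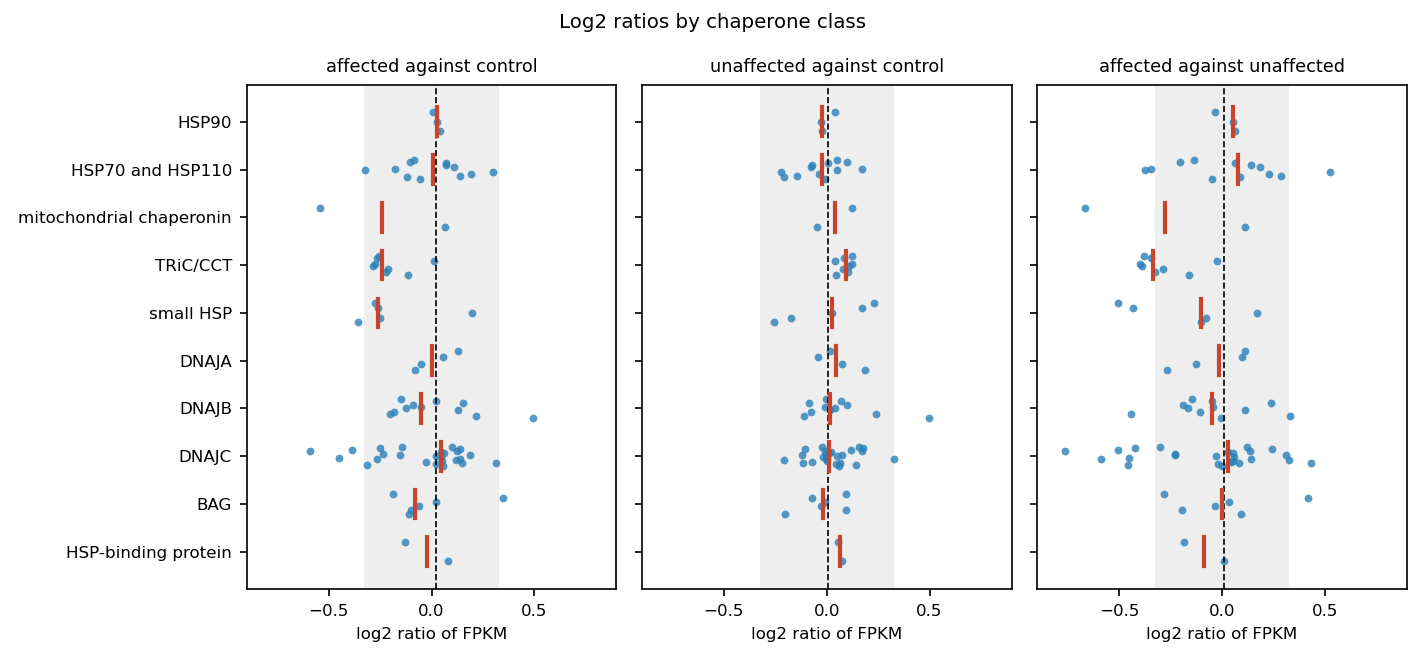
Log2 ratio of group FPKM for each gene by class in the 3 comparisons, 1 point per gene, with a red bar at the class median, a dashed line at the median of all 15455 loci and a grey band for ratios within 0.32 of 0. In affected against unaffected fetuses, 5 of 8 TRiC subunits lie below the band, as do 18.5% of all loci, and the 3 HSP90 genes lie inside it, while with the length trend removed 0 TRiC subunits lie below it.

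Hspa8 and the 3 HSP90 genes had close levels in the 3 groups. Hspa8, the constitutive HSP70, was the most abundant gene, with 1689 FPKM in control, 1749 in unaffected and 1590 in affected fetuses, and ranked 98 among the 27095 loci by mean FPKM. Hsp90ab1, the constitutive cytosolic HSP90, had 1232, 1269 and 1240 FPKM in the same order. Hspa8 and Hsp90ab1 together held 38.0% of the summed FPKM of all 90 genes in control, 37.9% in unaffected and 39.0% in affected fetuses. Hsp90aa1, the cytosolic HSP90 that also responds to heat, had 412, 403 and 419 FPKM. Hsp90b1, the HSP90 of the ER also known as GRP94, had 149, 146 and 153 FPKM. The log2 ratios of the 3 HSP90 genes lay between 0.01 and 0.04 in affected against control fetuses and between -0.03 and 0.06 in affected against unaffected fetuses.

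Of the 14 HSP70 and HSP110 genes, 12 passed the filter, and 1 of them was lower (8.33%, against 11.5% of all loci) and 0 were higher (against 12.6%) in affected against control fetuses. Hspa13, an HSP70 relative of the microsomes, was that gene, with 24.1 FPKM in control, 25 in unaffected and 19.3 in affected fetuses, a log2 ratio of -0.32 against control, at the limit itself. Hspa12a, a distant HSP70 relative abundant in brain, had 21.2, 18.1 and 26.1 FPKM, a log2 ratio of 0.52 in affected against unaffected fetuses and of 0.30 against control. Hspa14, an HSP70 of ribosomes, had 25.3, 28.5 and 22.4 FPKM, a log2 ratio of -0.35 in affected against unaffected fetuses. These genes were the 3 of the class that were apart between affected and unaffected fetuses, Hspa12a upward (8.33%, against 20.7% of all loci) and Hspa13 and Hspa14 downward (16.7%, against 18.5%). Relative to the length trend, Hspa12a was at 0.27 and Hspa14 at -0.16 in that comparison, both within the limit. Hspa5 had 133, 143 and 124 FPKM in control, unaffected and affected fetuses. Hspa9, the mitochondrial HSP70 also known as mortalin, had 82.2, 82.6 and 86.3 FPKM. Both lay within the limit in every comparison. The HSP110 genes, which release ADP from HSP70, also lay within that limit. Among them, Hspa4 had 67.4, 64.2 and 70.7 FPKM, Hsph1 had 53.6, 50.9 and 57.8 FPKM, and Hspa4l had 9.82, 9.57 and 11.2 FPKM. All 3 HSP110 genes were highest in affected and lowest in unaffected fetuses, an order seen in 32.3% of all loci. Relative to the length trend, Hsph1 was at 0.10 in affected against unaffected fetuses, while Hspa4 and Hspa4l changed sign, at -0.06 and -0.21. Among the scarce members, Hspa1l, known from testis, had 2.71, 2.45 and 2.99 FPKM, and Hspa2, also known from testis, had 1.91, 1.90 and 1.84 FPKM. Hspa12b, known from endothelium, had 2.27, 1.97 and 2.09 FPKM over a locus interval that takes in several other genes.

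The stress-inducible HSP70 genes were close to undetected in all 3 groups. Hspa1a had 0.249 FPKM in control, 0.154 in unaffected and 0.149 in affected fetuses. Hspa1b had 0.0949, 0.148 and 0.138 FPKM. Both lay below the filter, and because the 2 genes are near-identical copies, their fragments may have been split between them in either direction. Dnajb1, the J protein that works with inducible HSP70, had 31.8, 34.1 and 29.9 FPKM, and Hsf1 had 11.2, 10.7 and 11.2 FPKM. Neither was apart between any of the groups.

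The barrel and the lid of the mitochondrial chaperonin differed from each other. Hspe1, the lid, had 232 FPKM in control, 252 in unaffected and 159 in affected fetuses, a log2 ratio of -0.54 in affected against control and -0.67 in affected against unaffected fetuses. Hspd1, the barrel, had 133, 129 and 139 FPKM, a log2 ratio of 0.06 in affected against control and 0.11 in affected against unaffected fetuses. The lid was thus lowest in affected fetuses while the barrel was slightly higher, and Hspe1 exceeded Hspd1 1.74-fold in control, 1.95-fold in unaffected and 1.14-fold in affected fetuses. Hspe1 has a transcript of 774 nt, and relative to the length trend it was within the limit, at -0.25 against control and -0.22 against unaffected fetuses, with Hspd1 at 0.10 and 0.19. The genes lie head to head and were given the same locus interval (chr1:55077834-55091317, mm10), with Hspe1 on the plus and Hspd1 on the minus strand. The library kit does not mark strand, so fragments from any stretch shared by both genes cannot be told apart. The annotation also names 6 pseudogenes of Hspe1 and 5 of Hspd1, so that both values are uncertain where reads fit a pseudogene as well.

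The subunits of TRiC had the same order of groups, with 1 exception. Of the 10 genes named after its subunits, 8 passed the filter, and these encode the 8 subunits of the ring. The testis form Cct6b and the gene Cct8l1 lay below it. Cct5, the epsilon subunit and the most abundant, had 319 FPKM in control, 348 in unaffected and 267 in affected fetuses. Cct6a had 284, 301 and 237 FPKM. Cct3 had 219, 239 and 181 FPKM. Each of these was highest in unaffected and lowest in affected fetuses. The same order held for Cct4, with 215, 231 and 176 FPKM. It also held for Tcp1, the alpha subunit, with 176, 186 and 152 FPKM. The levels of Cct7 were 171, 184 and 147 FPKM, and those of Cct8 were 159, 164 and 147 FPKM, again in this order. Cct2, the beta subunit, was the exception, with 260, 267 and 262 FPKM. The order unaffected over control over affected was thus seen in 7 of 8 subunits (87.5%), in 30 of all 78 genes (38.5%) and in 31.1% of all loci. The subunits assemble into 1 complex, and the values come from the same 3 group averages, so they are not independent of each other.

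In affected against control fetuses the median log2 ratio of the 8 TRiC subunits was -0.24, with a range from -0.28 to 0.01, and none of them reached the limit of 0.32. In affected against unaffected fetuses the median was -0.34, and Cct3, Cct4, Cct5, Cct6a and Cct7 were lower past the limit, which is 62.5% against 18.5% of all loci. Relative to the trend with transcript length described below, 0 of the 8 were past it. In unaffected against control fetuses the median was 0.09 and all 8 ratios were above 0, as were 7993 of all 15455 loci. That median was 0.05 relative to the length trend and Cct2 was at -0.03. Summed over the class, TRiC reached 1803 FPKM in control, 1920 in unaffected and 1569 in affected fetuses. A match to the element of 2 units was found for Cct2, Cct5 and Cct6a, which is 3 of the 7 subunits with a window. Cct2 and Cct5 each have another window without a match, so this count of genes cannot be set against the 15.1% of all windows. It lies before the start site in Cct5 and in the exception, Cct2, and after the start site in Cct6a. In Cct2 the window with the match lies inside the locus interval, and the window over the 5′ end of that interval holds 0 matches. The locus intervals of Tcp1, Cct7 and Cct8 overlap other genes.

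**Figure D3:**
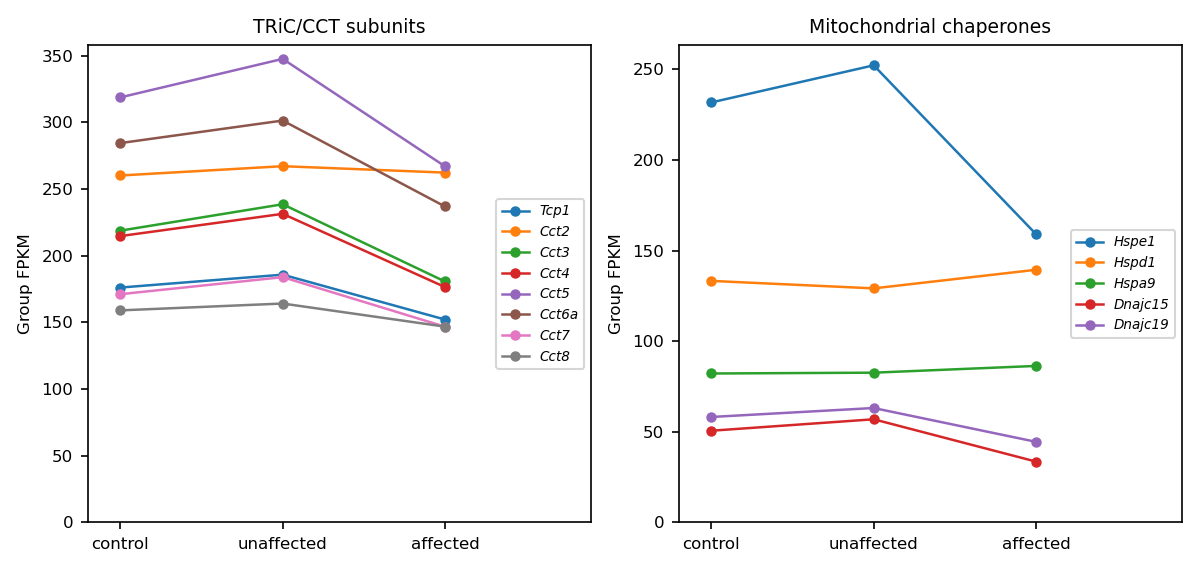
Group FPKM of the 8 TRiC subunits (left) and of 5 mitochondrial chaperones (right) in the 3 groups on linear axes from 0, 1 value per group, with lines that only join the values of a gene. All TRiC subunits but Cct2 are lowest in the affected group, and Hspe1, Dnajc15 and Dnajc19 are lowest there while Hspd1 and Hspa9 are not.

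Dnajc15, a J protein of the mitochondrial inner membrane, had 50.6 FPKM in control, 56.9 in unaffected and 33.6 in affected fetuses, a log2 ratio of -0.59 against control and -0.76 against unaffected fetuses. Dnajc19, its relative at the import channel, had 58.2, 63.1 and 44.5 FPKM, a log2 ratio of -0.39 against control and -0.51 against unaffected fetuses. Their HSP70 partner Hspa9 did not share this, and the ratio of Dnajc15 to Hspa9 in the 3 groups was 0.616, 0.689 and 0.389. The ratio of Dnajc19 to Hspa9 was 0.708, 0.764 and 0.515. The interval of Dnajc19 overlaps that of Fxr1. Relative to the length trend Dnajc19 was within the limit, at -0.18 against control and -0.17 against unaffected fetuses at its assigned length. With its coding transcripts of 551, 659 and 1695 nt it was at -0.06, -0.06 and -0.27 against control. Against unaffected fetuses it was then at -0.04, -0.03 and -0.31, also within the limit. Only with its longest coding transcript, of 2499 nt, was it past the limit, at -0.35 and -0.42. Dnajc15 was past it only at its 1 annotated coding transcript, the longest.

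Of the 28 DNAJC genes, 25 passed the filter, and 3 were lower (12%, against 11.5% of all loci) and 0 higher in affected against control fetuses. Besides Dnajc15 and Dnajc19, the lower gene was Dnajc4, with 10.8 FPKM in control, 10.8 in unaffected and 7.93 in affected fetuses, a log2 ratio of -0.45. Relative to the length trend Dnajc4 was within the limit, at -0.17 against control and -0.02 against unaffected fetuses. Dnajc24, which takes part in making diphthamide on elongation factor 2, had 8.83, 11.1 and 7.35 FPKM, a log2 ratio of 0.33 in unaffected against control and of -0.59 in affected against unaffected fetuses. It was thus the 1 DNAJC gene of 25 apart between unaffected and control fetuses, against 5.53% of all loci higher. Relative to the length trend it was within the limit, at 0.21 and -0.25 in these comparisons. The 4 DNAJC genes with the highest mean over the groups stayed within 0.32 of control in both exposed groups. Dnajc8, a splicing-associated protein, had 119, 133 and 108 FPKM, and Dnajc7, a partner of both HSP70 and HSP90, had 97.7, 96.0 and 105 FPKM. Dnajc9, a histone chaperone, had 63.1, 71.3 and 53.1 FPKM, a log2 ratio of -0.42 in affected against unaffected fetuses, and -0.21, within the limit, relative to the length trend. Dnajc5, the cysteine string protein of synaptic vesicles, had 55.3, 51.3 and 60.9 FPKM. The order among groups was thus opposite for Dnajc8 and Dnajc9 on one side and Dnajc5 on the other. In affected against unaffected fetuses, 6 DNAJC genes were lower (24%, against 18.5% of all loci) and 2 were higher (8%, against 20.7%). Among them, Dnajc12 was at -0.46, Dnajc16 at 0.43 and Dnajc13, an endosomal protein, at 0.33. All 3 were within the limit relative to the length trend, at -0.27, 0.17 and -0.07, so that Dnajc13 changed sign.

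Of the DNAJA genes, all 4 passed the filter and none was apart in any comparison. Dnaja1 and Dnaja2, the main cytosolic partners of Hspa8, had 106, 107 and 116 FPKM and 70.4, 68.3 and 73.1 FPKM. Dnaja3, a mitochondrial J protein, had 20.8, 21.9 and 20.0 FPKM, and Dnaja4 had 2.22, 2.52 and 2.10 FPKM. Of the 13 DNAJB genes, 11 passed the filter. Dnajb6, which holds back the aggregation of polyglutamine proteins, was the most abundant, with 173, 172 and 156 FPKM. Dnajb11, a J protein of the ER, had 34.7, 36.3 and 35.2 FPKM, and Dnajb5 had 31.5, 29.7 and 35 FPKM. None of these was apart. Dnajb13, an axonemal protein of motile cilia and sperm, had 1.10, 1.55 and 1.54 FPKM, a log2 ratio of 0.49 in affected and 0.50 in unaffected fetuses against control. It was higher in both exposed groups, at a level close to the filter. Foxj1, the transcription factor of motile cilia, had 5.45, 6.62 and 6.79 FPKM beside it, and its part in the Dnajb13 value was not tested. Dnajb3 was lower in affected than in unaffected fetuses, at -0.44, over an interval that holds the Ugt1a genes, and Dnajb14 was higher, at 0.33. Against the length trend both were within the limit, at -0.07 and -0.10, so that Dnajb14 changed sign.

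Of the 8 small HSPs taken by symbol, 5 passed the filter, and their median log2 ratio in affected against control fetuses was -0.26. Cryab, which was placed in the partner list described below, is not among them. It had 6.70, 6.38 and 6.42 FPKM in control, unaffected and affected fetuses, a log2 ratio of -0.06 against control. Hspb11, which acts in intraflagellar transport in cilia as IFT25, was the most abundant, with 35.6 FPKM in control, 41.7 in unaffected and 29.4 in affected fetuses. Hspb8, a partner of BAG3 in selective autophagy, had 5.67, 6.39 and 4.73 FPKM. Both were past the limit, lower in affected than in unaffected fetuses, with log2 ratios of -0.50 and -0.43, and as 2 of 5 genes they stand against 18.5% of all loci. Both were within the limit relative to the length trend, at -0.04 and -0.26. Hspb6 had 4.75, 4.84 and 5.44 FPKM, and Hspb1, also known as HSP27, had 3.77, 3.35 and 3.17 FPKM. Hspb3 was the 1 small HSP of 5 apart from control, against 11.5% of all loci lower, with 1.76, 1.47 and 1.37 FPKM and a log2 ratio of -0.36 in affected fetuses. These transcripts are 608 to 1816 nt long, and relative to the length trend the median of the 5 was 0.02 against control and 0.33 against unaffected fetuses, where it was -0.10 as deposited. Hspb3 was then at -0.06 against control, while Hspb1, Hspb3 and Hspb6 were past the limit upward against unaffected fetuses, as were 8.95% of all loci. Small HSPs are also abundant in muscle and vessel walls. The 5 muscle markers summed to 0.505, 0.421 and 0.574 FPKM in control, unaffected and affected fetuses, each with a mean below 1. The 9 markers of meninges and vessels summed to 132, 126 and 120 FPKM, with Dcn at 31.6, 28.1 and 22.1 FPKM. Of the 8 past the filter, 5 had ratios below 0 and 3 above 0 in affected against control fetuses. Dcn alone was past the limit, at -0.52 (12.5%, against 11.5% of all loci lower). The part of these markers in the small HSP values was not tested.

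The 6 BAG genes all passed the filter, and Bag6 was the 1 apart (16.7%, against 12.6% of all loci higher against control and 20.7% against unaffected fetuses). Bag6, which guides tail-anchored membrane proteins and hands misfolded proteins to the proteasome, had 94.0 FPKM in control, 89.4 in unaffected and 120 in affected fetuses, a log2 ratio of 0.35 against control and 0.42 against unaffected fetuses. Bag1, a nucleotide exchange factor of HSP70, had 135, 144 and 118 FPKM, in the opposite order. Bag5 had 20.2, 20.1 and 20.6 FPKM, and Bag4, a silencer of death receptors, had 16.5, 16.1 and 15.8 FPKM. Bag2, an inhibitor of the ubiquitin ligase CHIP, had 8.72, 9.31 and 8.13 FPKM, and Bag3, the heat-inducible member, had 2.42, 2.10 and 2.24 FPKM. The HSP70-binding proteins Hspbp1 and Hspbap1 were within the limit in every comparison. The genes below the filter were Hspa1a, Hspa1b, Cct6b, Cct8l1, Hspb2, Hspb7, Hspb9, Dnajb7, Dnajb8, Dnajc5b, Dnajc22 and Dnajc5g, of which Dnajc5g was listed at 0 in all 3 groups.

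A list of 39 other genes of the chaperone system was described beside these, and 35 passed the filter. In affected against control fetuses, 5 of the 35 were lower (14.3%, against 11.5% of all loci) and 0 were higher (against 12.6%), with a median log2 ratio of -0.12. Of these, 4 are subunits of prefoldin, the complex that hands unfolded actin and tubulin to TRiC. Pfdn5 had 508 FPKM in control, 568 in unaffected and 347 in affected fetuses, a log2 ratio of -0.55. Vbp1, which encodes prefoldin subunit 3, had 87.5, 93.2 and 66.9 FPKM, a log2 ratio of -0.39. Pfdn4 and Pfdn1 had log2 ratios of -0.37 and -0.33, and Pfdn2 had 154, 159 and 135 FPKM, within the limit at -0.19. All 5 prefoldin genes past the filter were thus lowest in affected fetuses. Their transcripts are 816 to 1735 nt long. In affected against control fetuses, all loci of up to 1000 nt had a median of -0.30 and those of 1000 to 2000 nt a median of -0.14. Relative to the trend with transcript length described below, none of the 5 was past the limit against control, with Pfdn5 at -0.31, Vbp1 at -0.26, Pfdn1 at -0.10, Pfdn4 at -0.09 and Pfdn2 at -0.08. The other lower gene was Hsbp1, which binds HSF1, with 318, 344 and 249 FPKM, and relative to the length trend it was at -0.15. The 2 partner genes lower past the limit relative to that trend in affected against control fetuses, of 35 and against 6.01% of all loci, were Grpel1, the exchange factor of the mitochondrial HSP70, at -0.36, and Sugt1, a partner of HSP90, at -0.45. As deposited they were within the limit, at -0.30 and -0.21, so that both rest on their assigned lengths of 3528 and 7392 nt. In affected against unaffected fetuses, 9 of the 35 were lower (25.7%, against 18.5% of all loci) and 2 were higher (5.71%, against 20.7%). Relative to the length trend, 6 of the 35 were lower and 2 higher in that comparison, against 9.48% and 8.95% of all loci. In unaffected against control fetuses, Pdia4, a disulfide isomerase of the ER, was the 1 lower gene at -0.60 (2.86%, against 6.99% of all loci), and Stub1, the ubiquitin ligase CHIP, the 1 higher gene at 0.38 (2.86%, against 5.53%). Stub1 was at 0.30 relative to the length trend, within the limit.

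The ratios moved with transcript length over the whole table, and the chaperone genes lay along the same trend. Lengths from the GENCODE M21 annotation were found for 12474 of the 15455 loci (80.7%) and for all 78 genes. Across loci, which share the 3 groups and are not independent replicates, Spearman's rho between length and log2 ratio was 0.56 in affected against control, -0.518 in unaffected against control and 0.64 in affected against unaffected fetuses. Across the 78 genes rho was 0.565, -0.429 and 0.59. Loci of up to 1000 nt had a median log2 ratio of -0.30 in affected against control fetuses, and loci longer than 4000 nt had 0.17. The 5 chaperone genes of up to 1000 nt, which are Hspe1, Dnajc4, Hspb1, Hspb3 and Hspb11, had a median of -0.36, and the 19 longer than 4000 nt had 0.07. The medians of the chaperone genes thus ran in the same direction as those of all loci. Past the limit, however, 0 of these 19 long genes were higher in affected against control fetuses and 2, Dnajc15 and Hspa13, were lower, against 743 higher and 52 lower of the 3762 loci of that length.

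Each ratio was also taken relative to a running median over loci ordered by length. In affected against control fetuses, 2 of 78 genes were then lower (2.56%), against 6.01% of all loci, and 2 were higher, against 4.10% of all loci. The lower genes were Dnajc15 and Hspa13, and the higher genes were Dnajb13 and Hspb6. In affected against unaffected fetuses, 3 genes were lower (3.85%), against 9.48% of all loci, and 5 were higher (6.41%), against 8.95%. The lower genes were Dnajc10, Dnajc15 and Hspa13, and the higher genes were Bag6, Hspa1l, Hspb1, Hspb3 and Hspb6. Bag6 was at 0.26 in affected against control and at 0.32 in affected against unaffected fetuses. The median of the 8 TRiC subunits was -0.17 against control and -0.22 against unaffected fetuses, with 0 of them past the limit in either. The value for Dnajc15 depends on its assigned length, a transcript of 6193 nt. It was -0.78 in affected against control fetuses at that length and -0.28 at the 674 nt of another transcript, which is annotated as subject to nonsense-mediated decay. Hspa13, with 4237 nt, was at -0.42, and at -0.34 with its other coding transcript of 2674 nt. Whether the trend with length arises in the libraries or in the tissue was not tested.

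**Figure D4:**
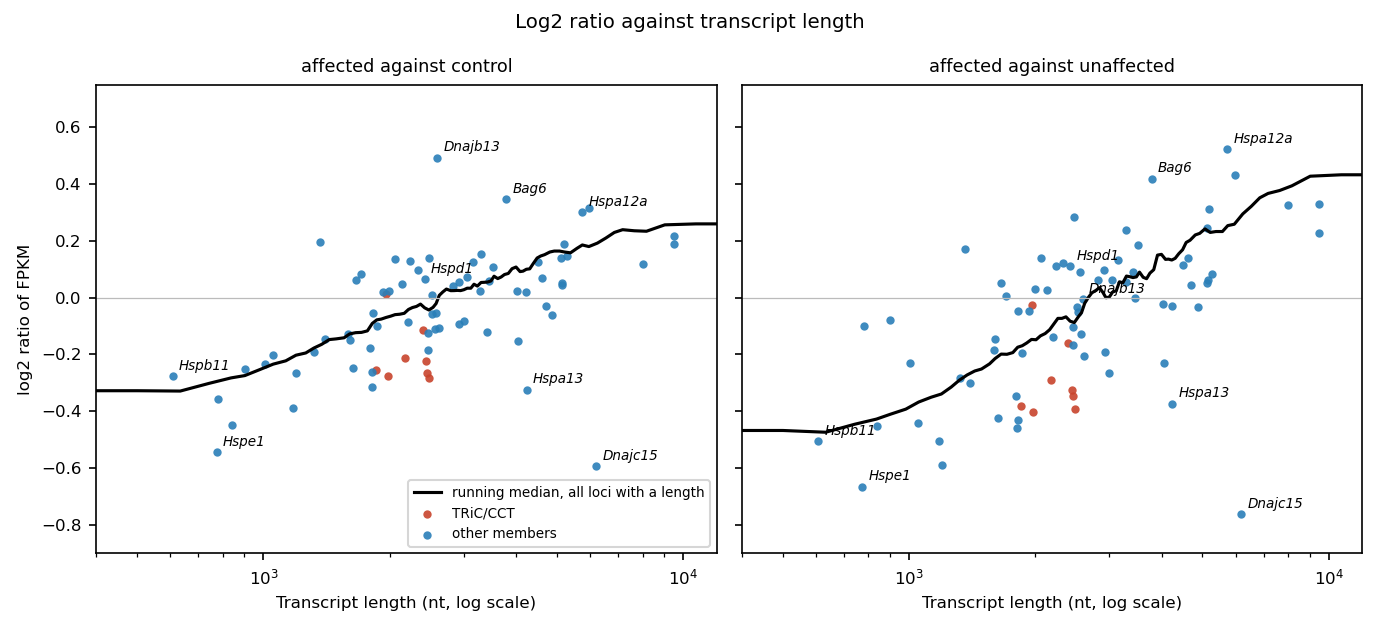
Log2 ratio of group FPKM against transcript length (log axis) for the 78 genes in affected against control (left) and affected against unaffected (right), with TRiC subunits in red, the other genes in blue and the running median of all loci with a length as a black line. Hspe1 and Hspb11 lie at the short, low end of the line, 7 of the 8 TRiC subunits lie below it, and Dnajc15 lies far below it at its assigned length.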

How the data were processed

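RNA-seq libraries of 9 fetuses were made by the authors with a TruSeq kit, which does not mark strand, and read as 50-base pairs. For alignment the methods give STAR as well as Bowtie and TopHat, while the submitters' processing notes give Bowtie2 2.2.4.0, Cufflinks, Cuffdiff and mm10. The authors deposited FPKM, 1 value per group and locus over 3 fetuses. The table also holds the fold changes, p-values and q-values of the authors' comparisons, which were not used. There were 0 columns of single samples, so precision per value is unknown.

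Log2 ratios were computed from FPKM without a pseudocount for loci with a mean FPKM of at least 1 and values above 0 in all 3 groups, in Python 3.11.15 with pandas 2.3.3 and NumPy 2.4.6, with a log2 ratio of at least 0.32 in size as the limit, and the scripts were tested on simulated data. Named are all HSP90, HSP70/HSP110, chaperonin, TRiC and BAG genes past the filter, in the other classes the 4 most abundant and those at least 1.5-fold apart, and partner genes past the limit in affected against control fetuses. Other genes were chosen after their values were seen, as were the 5 promoters printed. The genes, lists and classes were chosen with earlier results of these data known. Lengths are from GENCODE M21, the median of the transcripts with a RefSeq mRNA match where there were any. Alternatives were a limit of 1.5-fold, a minimum of 5 FPKM, no filter, a pseudocount of 1, centring, leaving out loci with joined names, removal of the length trend and leaving out overlapping loci, the latter 2 added after the data were seen.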

Additional observations from a re-analysis of the deposited data

How the results depend on the processing

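The deposited table has 1 value per group, so no replicate could be left out. No paired analysis was possible because the columns hold 1 value per group and carry no replicate number. Of 69 recomputed values, 47 kept within 1.5 times their count, or within 0.05 of their median with the same sign, and 22 did not. With a limit of 1.5-fold, 1 gene was lower and 0 were higher in affected against control fetuses, 0 were higher in unaffected against control fetuses, and 3 were lower and 0 higher in affected against unaffected fetuses. Over all loci the shares at that limit were 3.10% and 3.47%, 2.45% higher in unaffected against control fetuses, and 5.10% and 7.19%. With a minimum of 5 FPKM, the higher genes were 1 in affected against control, 1 in unaffected against control and 3 in affected against unaffected fetuses. Without a filter they were 6, 4 and 10, and 4 genes were lower in unaffected against control fetuses. With a pseudocount of 1 FPKM the higher genes were 1, 0 and 3. With the median of all loci set to 0, the higher genes were 1 in unaffected against control and 3 in affected against unaffected fetuses. No share of all loci is given for the minimum of 5 FPKM, no filter, the pseudocount or this centring. Those counts therefore have no background beside them. With the length trend removed, 2 genes were lower in affected against control and 3 in affected against unaffected fetuses, against 6.01% and 9.48% of all loci. In unaffected against control fetuses 1 of the 78 was then lower and 1 higher, with a median of -0.0038. Over all 12474 loci with a length, 197 were lower and 187 higher there. Counts of 6 or fewer move with single genes near the limit.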

Other observations

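Grouped by the compartment in which their proteins work, an assignment made from general knowledge after the values were seen, the mitochondrial chaperones included both genes that were lower in affected fetuses and genes near control. Of 8 mitochondrial genes, Hspe1, Dnajc15 and Dnajc19 were lower past the log2 limit of 0.32 in affected than in control fetuses (37.5%, against 11.5% of all loci), and the median of the 8 was 0.01 on the log2 scale. With the length trend removed, 1 of the 8, Dnajc15, was lower (against 6.01% of all loci), and this rests on the 6193 nt of its coding transcript. The other mitochondrial genes had log2 ratios between -0.05 for Dnaja3 and 0.12 for Dnajc11, a protein of the mitochondrial outer membrane. Of 8 ER genes, Hspa13 alone was apart in affected against control fetuses (12.5%, against 11.5% of all loci lower), and the median was -0.04. Dnajb9, a J protein induced by ER stress, had 19.7 FPKM in control, 20.3 in unaffected and 18.1 in affected fetuses. Dnajc3, an ER J protein that also inhibits eIF2alpha kinases, had 6.29, 6.29 and 6.51 FPKM.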
